A study of Homo sapiens with 8 samples.

Results

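The variable protein-coding promoters of this study are 5049 regions of open chromatin that lay at protein-coding gene starts and carried a peak in some libraries but not in others. They were chosen by measured values. Peaks of the 8 lists on chromosomes 1 to 22 and X were joined where they overlapped, and a region was kept if 2 to 7 lists had a peak in it, if it lay within 1000 bp of a protein-coding transcription start site (TSS), and if it was shorter than 2000 bp. The members made up 9.69% of all 52105 regions and 30.0% of the 16817 regions at protein-coding promoters. Another 9096 promoters had a peak in all 8 lists and are called constant here, and 2672 had a peak in 1 list. The members lay nearest to 4352 different genes.

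The study used FAIRE-seq, which recovers DNA that is free of nucleosomes after formaldehyde fixation and sonication, in U2OS, a human osteosarcoma cell line. It asked whether ZBTB48, a zinc finger protein that binds telomeric repeats and promoters, opens chromatin at the promoters it binds. The 4 groups, with 2 libraries each, were untreated WT cells, untreated ZBTB48 KO cells, and both genotypes after interferon gamma (IFNγ) at 250 U/ml. The WT clones are named WT_4 (replicate 1) and WT_5 (replicate 2) and the KO clones KO_C5 (replicate 1) and KO_D2 (replicate 2), so each genotype is represented by 2 clones and each clone was grown without and with IFNγ. The labels state 24 hours of IFNγ and the study's text a longer time, so the duration is uncertain. Lists held between 16730 and 37533 peaks, and the library background solved from the peak values lay between 0.621 and 1.08 fragments per position. As a check of the cell type, 4 of 12 osteoblast and mesenchymal marker genes had a constant promoter (RUNX2, SP7, COL1A1 and FN1), 2 had a variable promoter (BGLAP and SPARC), and VIM was among 5 with no peak within 1000 bp. Of 7 B cell markers, 6 had no peak there and CD22 had a variable promoter. A constant promoter was also seen at 2 of 6 epithelial markers (KRT8 and KRT18), 1 of 4 neuron markers (SNAP25) and 0 of 4 hepatocyte markers. The constant share was 33.3% in both the osteoblast and mesenchymal list and the epithelial list, so it did not tell these lineages apart. The ZBTB48 promoter itself had a peak in all 8 lists. That does not check the knockout, since an edited gene can keep an open promoter.

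A promoter is the stretch around a gene start where transcription factors and RNA polymerase assemble, and in an active gene it is usually depleted of nucleosomes. Many human promoters, above all those of housekeeping genes, lie in CpG islands rich in G and C, where factors such as SP1 bind. Promoters of interferon-induced genes often hold ISRE elements, which interferon regulatory factors bind, or GAS elements, named for activation by IFNγ.

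The promoters that best show how the members differed are given as sequence, chosen after their values were seen. They are the parts before the gene start that hold no exon and lie inside the open region, taken from RefSeq (GRCh38.p14, strand of the gene), and all 7 genes had an entry. IFI6 (chr1:27672213-27672392, minus strand), ISG15 (chr1:1013297-1013496, plus strand) and PARP14 (chr3:122680639-122680838, plus strand) are interferon-induced genes. Capitals in these mark ISRE letters (GAAA and GAAA with NN between them) and GAS letters (TTCNNNGAA).
IFI6: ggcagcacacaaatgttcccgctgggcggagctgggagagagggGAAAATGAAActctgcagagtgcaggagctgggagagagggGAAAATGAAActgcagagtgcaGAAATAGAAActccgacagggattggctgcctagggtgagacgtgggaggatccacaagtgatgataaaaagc
ISG15: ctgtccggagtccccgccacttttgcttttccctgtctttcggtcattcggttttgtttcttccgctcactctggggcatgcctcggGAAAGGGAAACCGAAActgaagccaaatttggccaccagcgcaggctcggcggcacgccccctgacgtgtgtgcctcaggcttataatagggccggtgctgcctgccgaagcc
PARP14: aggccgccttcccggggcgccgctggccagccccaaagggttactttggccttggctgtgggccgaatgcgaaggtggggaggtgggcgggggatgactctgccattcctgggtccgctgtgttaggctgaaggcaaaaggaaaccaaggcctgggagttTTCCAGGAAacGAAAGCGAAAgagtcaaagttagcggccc
The IFI6 stretch held 3 ISRE matches, which began 156, 115 and 93 bp before the start, and the ISG15 stretch held 2 that overlap. In PARP14 a GAS match, whose letters read the same on both strands, began 40 bp before the start, and an ISRE match followed at 29 bp. CHST14 (chr15:40470784-40470983, plus strand) and AMDHD2 (chr16:2520219-2520356, plus strand) had peaks in every WT library and no KO library. RBM3 (chrX:48574284-48574448, plus strand) and DDX27 (chr20:49219216-49219346, plus strand) were among the strongest members and were absent from untreated WT_4. Capitals in these mark the SP1 letters GGGCGG on either strand, and in AMDHD2 the matches overlap.
CHST14: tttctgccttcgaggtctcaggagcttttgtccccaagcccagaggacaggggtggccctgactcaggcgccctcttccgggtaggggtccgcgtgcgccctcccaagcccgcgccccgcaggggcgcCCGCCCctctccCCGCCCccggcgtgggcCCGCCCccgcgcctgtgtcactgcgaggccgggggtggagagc
AMDHD2: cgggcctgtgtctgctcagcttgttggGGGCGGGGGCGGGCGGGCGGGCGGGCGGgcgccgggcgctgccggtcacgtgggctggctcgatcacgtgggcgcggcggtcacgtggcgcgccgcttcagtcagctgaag
RBM3: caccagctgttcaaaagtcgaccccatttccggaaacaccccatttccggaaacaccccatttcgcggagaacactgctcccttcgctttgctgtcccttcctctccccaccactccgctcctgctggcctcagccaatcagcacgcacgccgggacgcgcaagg
DDX27: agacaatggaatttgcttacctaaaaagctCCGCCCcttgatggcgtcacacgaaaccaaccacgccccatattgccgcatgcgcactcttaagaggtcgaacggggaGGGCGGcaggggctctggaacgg
GC content was 75% and 77.5% in the CHST14 and AMDHD2 stretches and 60.6% and 57.3% in those of RBM3 and DDX27. RBM3 had no SP1 match and DDX27 had 2, against 3 in CHST14 and 6 in AMDHD2. The SP1 letters occurred in 60.8% of members within 300 bp at the strongest summit, in 85.4% of constant promoters and in 52.4% of the 19970 windows of the same length at all protein-coding gene starts.

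The members were weaker and narrower than the constant promoters. This follows in part from the rule, since a weak peak is called in fewer lists. A region also joins the peaks of all its lists, so its length can grow with their number. Strength is given as the percentile of a peak's −log10 p within its own list, so that lists of different depth can be set side by side. It is also given as fold enrichment, the ratio of the summit pileup to the local background with a pseudocount of 1 added to each. A longer list adds weak peaks, so the same peak stands at a higher percentile in it. The median percentile was 12.6 for promoters in 1 list, 20.2 in 2 lists, 26.8 in 3, 35.2 in 4, 37.7 in 5, 39.2 in 6 and 44.8 in 7, and it was 77.2 in constant promoters. Just inside and just outside the rule, median fold enrichment was 5.79 at 2 lists against 4.96 at 1, and 10.2 at 7 lists against 25.7 at 8. The step from 7 to 8 lists was thus the larger in strength. The median summit pileup was 12 fragments at 2 lists and 26 at 7, beside 73 in constant promoters, and no library called a peak below 5. The median length was 518 bp in members and 881.5 bp in constant promoters. A TSS lay inside 70.7% of members, 97.0% of constant promoters and 30.2% of promoters in 1 list. Promoters shared by 2 genes on opposite strands made up 7.31% of members and 13.1% of constant promoters. The share of all regions that were promoters was 17.1% at 2 lists, 50.8% at 7 and 78.7% at 8.

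**Figure D1:**
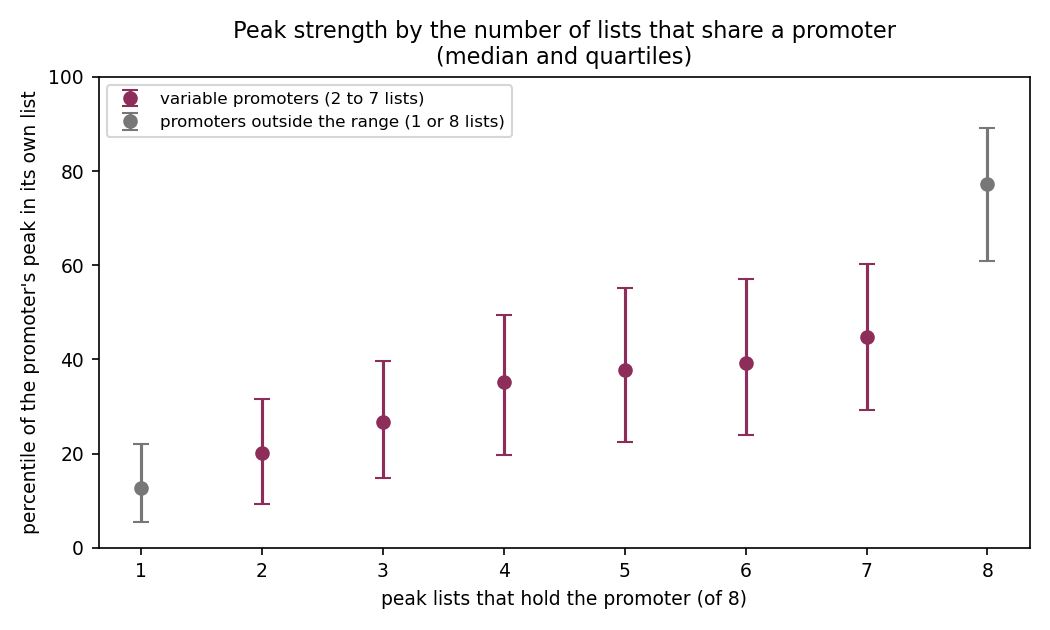
Percentile of a promoter's peak within its own list (y axis, 0 to 100) by the number of lists that hold the promoter (x axis), with points for medians and bars for quartiles over all peaks. Medians run from 20.2 to 44.8 over the members and stand at 12.6 and 77.2 for promoters in 1 and in 8 lists.

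The libraries carried the members very unevenly. Of the 5049 members, 2747 had a peak in untreated WT_4, 3680 in untreated WT_5, 1595 in untreated KO_C5 and 1573 in untreated KO_D2. After IFNγ the numbers were 2145 in WT_4, 4534 in WT_5, 3567 in KO_C5 and 2731 in KO_D2. WT_5 thus carried the most in either condition, 72.9% and 89.8% of members, and the untreated KO libraries carried the fewest, 31.6% and 31.2%. The order depended on list length. With every list cut to its 16730 strongest peaks and the members found anew (4105), WT_4 carried the most in both conditions. The untreated numbers were then 2793 in WT_4, 2245 in WT_5, 2126 in KO_C5 and 2590 in KO_D2, and those after IFNγ 2676, 2371, 2277 and 2098. In the full lists members made up 8.28% to 13.0% of a list. The 4-list pattern of both WT_5 libraries and both KO libraries after IFNγ was the most frequent of the 190 patterns seen, with 350 members (6.93% against 9.23% of all regions in 2 to 7 lists). Next came the members absent from untreated KO_C5 alone (348, 6.89% against 3.53%), from untreated KO_D2 alone (279, 5.53% against 2.32%), and the members of both WT_5 libraries only (270, 5.35% against 8.7%). Members in 7 lists were rarely missing from IFNγ-treated WT_5 (5 of 1002), IFNγ-treated KO_C5 (14) or untreated WT_5 (27).

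The libraries also differed in the GC content of the members they carried, a property the rule did not use. GC was taken in 300 bp at the strongest summit, and members were divided at 60.3% and 68.3% into tertiles of 1619, 1698 and 1732 regions. Untreated WT_4 carried 17.9% of the lowest and 90.8% of the highest GC tertile, whereas untreated WT_5 carried 83.9% and 59.2%. The KO clones parted in the same way before treatment, as KO_C5 carried 19.6% of the lowest and 55.5% of the highest tertile and KO_D2 33.7% and 23.5%. After IFNγ WT_4 still carried more of the highest tertile (60.5%) than of the lowest (22.9%). The other IFNγ libraries carried more of the lowest tertile, as WT_5 carried 93.1% of the lowest and 81.6% of the highest, KO_C5 79.5% and 56.9%, and KO_D2 69.1% and 34.2%. KO_C5 therefore moved from the GC-rich to the GC-poor side between its 2 libraries, and no other clone did.

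The same order appeared when every list was held to its 16730 strongest peaks. Untreated WT_4 then carried 12.3% of the lowest and 70.7% of the highest tertile, and untreated KO_C5 16.5% and 43.4%. Untreated WT_5 carried 50.4% and 12.6%, and IFNγ-treated KO_C5 46.0% and 14.8%. Constant promoters, which all libraries share and which took no part in the choice of members, were divided at 67.0% and 73.0% GC. Their median percentile was higher in the highest than in the lowest GC tertile by 8.88 points in untreated WT_4, by 14.0 in untreated KO_C5 and by 6.69 in IFNγ-treated WT_4. In the other libraries this difference was negative, from −4.31 points in untreated KO_D2 to −11.4 points in IFNγ-treated KO_D2. These values describe 8 libraries, and the part of GC content in the results below was not tested.

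**Figure D2:**
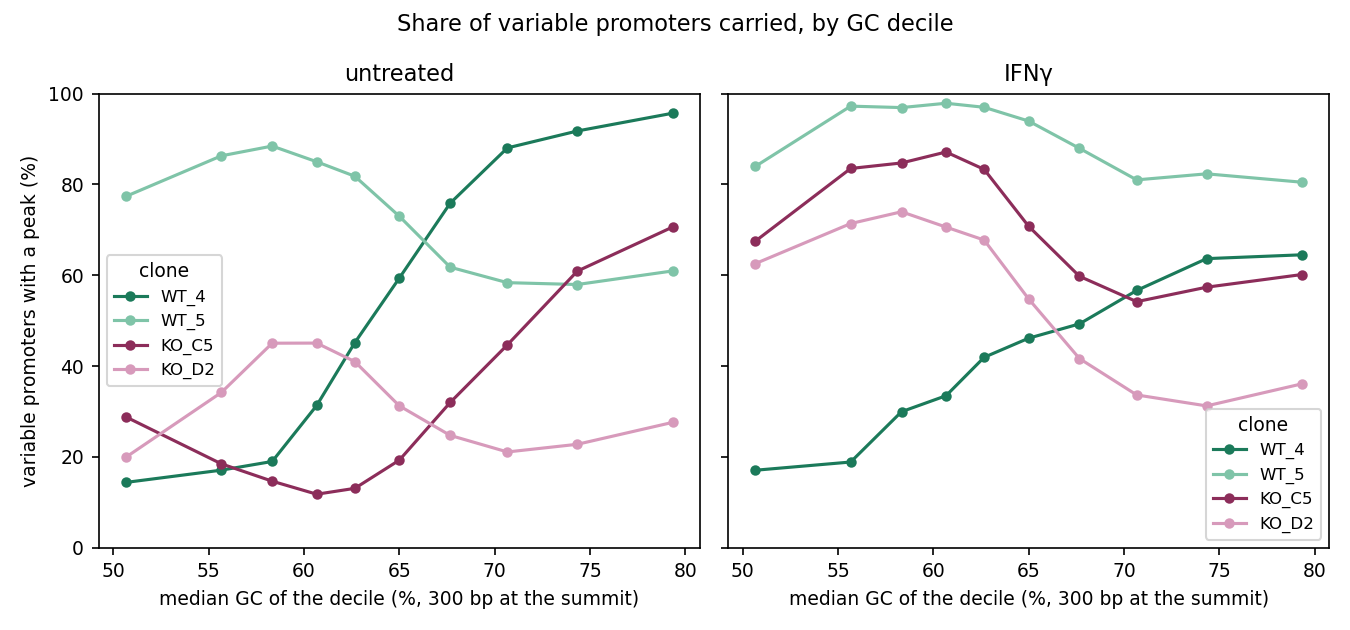
Percent of variable promoters with a peak (y axis) in 10 groups of 466 to 544 members ordered by GC content (x axis, median GC in percent), for untreated libraries (left) and IFNγ libraries (right), with a line per clone. The lines of WT_4 in both conditions and of untreated KO_C5 are highest in the GC-richest group, and those of the other libraries are highest among the 5 GC-poorest groups.

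**Figure D3:**
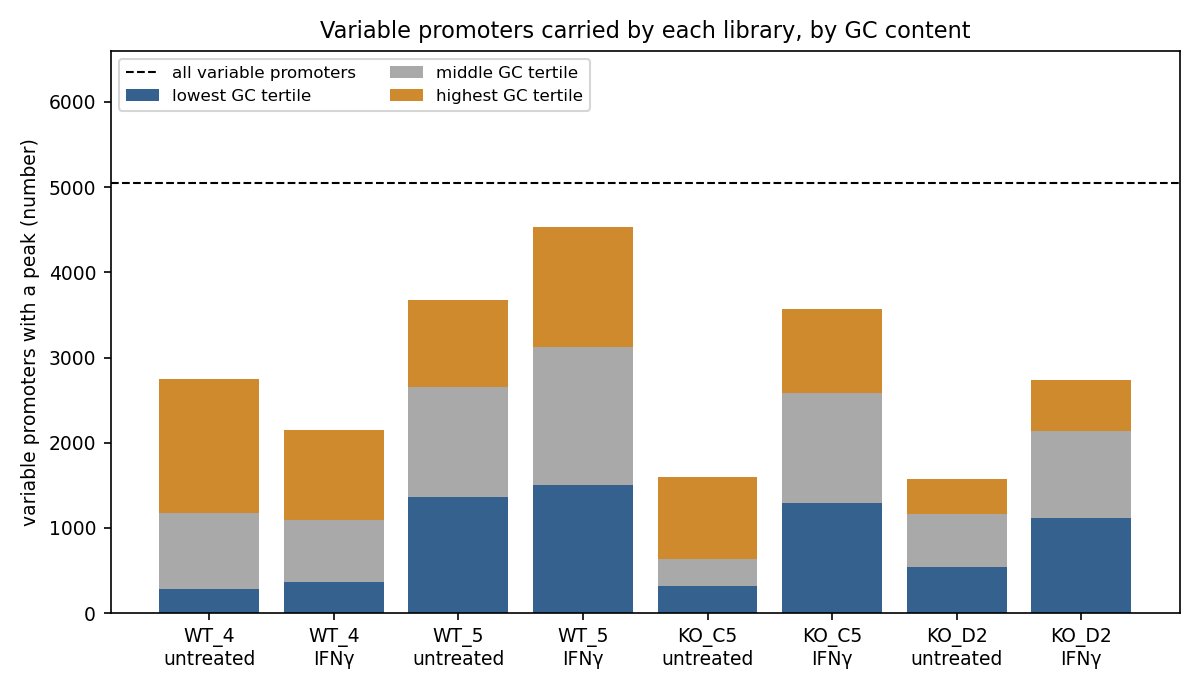
Number of variable promoters with a peak in each library (y axis), stacked by GC tertile, with the 5049 members as a dashed line. The highest tertile makes up the largest part of the bar in untreated WT_4 (1573 of 2747), untreated KO_C5 (962 of 1595) and IFNγ-treated WT_4 (1048 of 2145).

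For genotype, WT and KO clones were compared over all members and then by single promoters. The rule counts lists without regard to genotype or treatment. It does use the same peaks that are counted here, so p-values for numbers and shares of members are descriptive. WT clones had a mean of 3276.5 ± 1174.5 members per library and KO clones 2366.5 ± 303 (SD, n = 2 clones each), a difference within the spread of the WT clones (two-sided exact permutation p = 0.667). With 2 clones each the test cannot give a p below 0.333. Members made up 12.1% ± 0.189 of the WT lists and 10.4% ± 0.293 of the KO lists (SD, n = 2 clones each, exact permutation p = 0.333, the smallest possible, adjusted p = 0.667 over 4 measures). The clone means of a genotype did not overlap those of the other in this measure, but single libraries did. The share was 13.0% in IFNγ-treated KO_C5, above the 11.3% to 12.7% of the WT libraries. With lists of equal length the KO_D2 libraries held 2590 and 2098 members, above and below the 2245 and 2371 of WT_5. Member peaks of WT clones had a median fold enrichment of 8.76 ± 0.889 and those of KO clones of 7.56 ± 0.202 (n = 2 clones each with SD, p = 0.333 by exact permutation). Their median percentile was 38.4 ± 9.64 and 31.6 ± 1.06 (p = 0.667 by exact permutation). Beside these stands the local background at the members, whose ratio to the background of the library ran from 1.37 to 1.51 in WT clones and from 2.41 to 2.91 in KO clones. In constant promoters this ratio ran from 1.64 to 1.73 in WT clones and from 2.98 to 3.10 in KO clones, and its part in the difference was not tested.

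More members had peaks in a larger number of WT than KO libraries (2874, or 56.9%) than the reverse (879, or 17.4%). Over all 20278 regions in 2 to 7 lists these shares were 47.3% and 19.9%, which was not tested against the members. The share changed with GC content, since members with more WT libraries made up 35.4% of the lowest, 58.7% of the middle and 75.3% of the highest GC tertile. Peaks in all 4 WT libraries and no KO library were found at 56 members, 1.11% against 0.528% of all such regions. Only 1 of these 56 belonged to the lowest GC tertile, 17 to the middle and 38 to the highest. Leaving out a library drops a condition of this pattern, which by itself lets the number rise. It was 122 without IFNγ-treated WT_4, 121 without untreated WT_5, 107 without IFNγ-treated KO_C5 and 89 without untreated KO_C5. No member had peaks in all KO libraries and no WT library, against 0.0296% of all such regions. With lists of equal length 11 members were WT-only and 3 KO-only.

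The strongest WT-only members were TMEM63C, CHST14, AMDHD2, BRSK1 and MINDY4. TMEM63C, which encodes an ion channel protein, had percentiles of 44.6 and 56.0 in untreated WT_4 and WT_5 and of 42.2 and 73.2 after IFNγ. CHST14, a sulfotransferase of dermatan sulfate synthesis, had 56.6 and 53.2 untreated and 42.1 and 55.5 after IFNγ. AMDHD2, a deacetylase of amino sugar metabolism, had 54.5 and 39.7 untreated and 57.4 and 47.9 after IFNγ. BRSK1, a kinase of the nervous system, ranged from 32.0 to 56.7 and MINDY4, a deubiquitinase, from 36.3 to 52.3. With an absent peak counted as 0, WT percentiles all lay above KO percentiles at 227 members, 4.50% against 2.03% of all such regions. The reverse was seen at 1 member, KCNQ1, which encodes a potassium channel, against 0.0493%. Its KO percentiles ran from 55.7 to 61.0 and its WT percentiles from 48.8 to 52.5 with no peak in IFNγ-treated WT_4. Members with at least 3 more KO than WT libraries were CCDC74A and RPN2 (0.414% of all such regions).

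MTFP1, a mitochondrial fission gene and one of the ZBTB48 targets named in the study, had 2 variable regions. The region over its start had a peak in untreated WT_5 (percentile 35.4), IFNγ-treated WT_4 (31.0) and IFNγ-treated WT_5 (59.8) and in no KO library. The region 739 bp away had peaks in both WT_5 libraries (49.4 and 62.2) and in IFNγ-treated KO_C5 (21.4). The untreated WT_4 list had no peak at either. The study reports open chromatin at the MTFP1 promoter in IFNγ-treated WT and not KO cells, and similar results at SNX15. Among the other target genes it names, SNX15 and PXMP2 had constant promoters and VWA5A a peak in 1 list. Constant means only a called peak in every list, and strength by genotype at SNX15 was not compared here. CIITA, the main target of the study, was variable and is described with the IFNγ results. The telomeric hexamer TTAGGG, which ZBTB48 can bind, was found on either strand at 7.72% of members, 6.43% of constant promoters and 9.17% of gene starts. It was present at 3 of the 56 WT-only members (5.36%).

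For IFNγ, libraries were compared over 4 against 4 and within each clone. The same peaks chose the members here too, so p-values for their numbers are descriptive. IFNγ libraries carried 3244 ± 1039 members and untreated libraries 2399 ± 1015 (SD, n = 4 each, two-sided exact permutation p = 0.314, adjusted p = 0.533 over 4 measures), so the difference was within the spread. The median percentile was 38.2 ± 8.90 against 31.8 ± 7.92 (exact permutation p = 0.314) and the median fold enrichment 8.41 ± 1.38 against 7.91 ± 0.811 (exact permutation p = 0.6), both with SD and n = 4. The clones did not move alike. The number of members went from 1595 to 3567 in KO_C5, from 1573 to 2731 in KO_D2 and from 3680 to 4534 in WT_5, but from 2747 to 2145 in WT_4. With lists of equal length the mean difference between IFNγ and untreated libraries was −83 members, so its direction turned.

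IFNγ-treated KO_C5 had peaks at 2291 members that untreated KO_C5 lacked, and lacked 319 that untreated KO_C5 had (47.6% and 6.65% of all such regions, 45.4% and 6.32% of members). In KO_D2 these numbers were 1446 and 288 (33.6% and 4.17% of all such regions), in WT_5 1051 and 197 (21.9% and 6.8%), and in WT_4 452 and 1054 (9.98% and 14.6%). These numbers depended on list length. With lists of equal length KO_D2 gained 496 and lost 988, the opposite direction. KO_C5 then gained 1215 and lost 1064, WT_5 gained 539 and lost 413, and WT_4 gained 465 and lost 582. The members that KO_C5 gained had a median GC of 61.0% and those it lost 74.0%. WT_4 likewise gained members of 60.3% and lost members of 69.0%, whereas WT_5 gained and lost members of the same median GC, 67.3%. Both KO clones gained 722 members in common, with a median GC of 59.7% (17.3% of all such regions, 14.3% of members), and both WT clones gained 63 (1.92% and 1.25%). More IFNγ than untreated libraries had a peak at 2913 members, 57.7% against 60.1% of all such regions, and fewer at 769, 15.2% against 11.2%. By GC tertile, 73.1% of the lowest, 67.2% of the middle and 33.9% of the highest had more IFNγ libraries.

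Peaks in all 4 IFNγ libraries and no untreated library were found at 12 members, 0.238% against 0.325% of all such regions, and at no member was the reverse seen (0.00493%). TMEM229B, a membrane protein gene, was the strongest, with percentiles of 26.0 in WT_4, 82.6 in WT_5, 70.4 in KO_C5 and 67.1 in KO_D2. SP100, which encodes an interferon-induced protein of PML nuclear bodies, had 30.1, 66.4, 36.1 and 43.3 in the same order. Both WT_4 values lay below those of the other clones. SPAG9, STPG1 and DNAJB5 followed, and STPG1 had a percentile of 1.62 in WT_4. CIITA, the master regulator of MHC class II genes, and GBP5, a guanylate-binding protein gene, were also among the 12. At CIITA the region over a start (chr16:10878680-10879099) had percentiles of 22.7 in WT_4, 55.0 in WT_5, 7.80 in KO_C5 and 19.7 in KO_D2 after IFNγ. The study reports open chromatin at the B cell promoter of CIITA (pIII) in IFNγ-treated WT and not KO cells. Which CIITA promoter this region covers was not determined, so it is not set against that report. A second CIITA region, 213 bp from a start further into the gene, had a peak in IFNγ-treated WT_5 (33.7) and IFNγ-treated KO_C5 (23.4). Here too a library left out drops a condition of the pattern. The number of such members was then 102 without IFNγ-treated WT_4, 64 without untreated WT_5 and 33 without untreated WT_4. With lists of equal length it was 4, and 5 members were untreated-only. With absent peaks counted as 0, IFNγ percentiles all lay above untreated ones at 42 members (0.832% against 0.804% of all such regions), and the reverse held at BLOC1S3 alone, a lysosome biogenesis gene (0.0148%).

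Members confined to the libraries of a single clone came mostly from WT clones. Both WT_5 libraries alone carried 270 members (5.35% against 8.7% of all such regions) and both WT_4 libraries alone 115 (2.28% against 1.54%). Both KO_C5 libraries alone carried 4 (0.0792% against 1.07%) and both KO_D2 libraries alone 5 (0.0990% against 0.182%). Both lists of a clone must hold the peak. The shorter list held 18913 peaks in WT_4, 29567 in WT_5, 19255 in KO_C5 and 16730 in KO_D2. The part of list length in these numbers was not tested. The WT_4-only members had a median GC of 71.7% and were led by EPOP, TUBG2 and MGST1. EPOP, a gene of a Polycomb-associated protein, had percentiles of 64.6 untreated and 48.3 after IFNγ, TUBG2, a gamma-tubulin gene, 56.9 and 45.5, and MGST1, a glutathione transferase gene, 36.4 and 57.5. The WT_5-only members had a median GC of 59.3% and were led by PPFIA3 (54.5 and 71.0), MAP3K7CL (49.3 and 67.7) and CFAP45 (49.8 and 65.8). The letters TGANTCA, bound by AP-1, a dimer of FOS and JUN proteins, were found on either strand in 17.0% of WT_5-only members and 3.48% of WT_4-only members. They were found in 9.33% of all members and 6.38% of gene starts. Their share also changed with GC content, from 256 of the 1619 members of the lowest GC tertile to 47 of the 1732 of the highest. The part of GC content in the difference between these clones was not tested. The KO_C5-only members included ATOH8, MEF2C and ZBTB46, with percentiles of 1.28 to 36.0, and the KO_D2-only members were XKR6, C19orf33, BEST1, TUNAR and KAT6A, with 2.96 to 51.2.

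The strongest members were ranked by mean percentile over the lists that hold them, so lists without a peak do not lower the mean. The 10 highest lay at RBM3, IRF3, LLPH, DDX27, TIMM10, SETDB1, KBTBD8, RRAGB, HAUS6 and RABGGTB, and 9 of them had no peak in untreated WT_4. DDX27, an RNA helicase gene, had no peak in untreated WT_4 and a percentile of 35.1 in IFNγ-treated WT_4. It had 92.0 in untreated WT_5, 67.7 in untreated KO_C5 and 71.4 in untreated KO_D2, and after IFNγ 94.8 in WT_5, 95.0 in KO_C5 and 90.0 in KO_D2. RBM3, a cold-inducible RNA-binding protein gene on the X chromosome, had no peak in either WT_4 library or in untreated KO_C5. Its percentiles were 81.0 in untreated WT_5, 64.7 in untreated KO_D2, and 88.3, 77.3 and 83.1 after IFNγ in WT_5, KO_C5 and KO_D2. IRF3, an interferon regulatory factor of the response to viral nucleic acids, had a peak in 6 lists. It had 90.2 in untreated WT_5, 58.9 in untreated KO_D2, and 59.8, 94.4, 82.6 and 82.3 after IFNγ in WT_4, WT_5, KO_C5 and KO_D2. A promoter near the top of several lists was thus absent from others. GC at these 10 members ran from 57.0% (RABGGTB) to 63.7% (KBTBD8), below the median of 64.0% over all members and of 70% over constant promoters.

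Genes were next sorted by the largest number of lists at any of their promoters. Of 19618 protein-coding genes, 9835 were constant, 3341 (17.0%) variable, 854 had a peak in 1 list and 5588 had none within 1000 bp. Of 4727 genes near a member, 1386 also had a constant promoter. Among genes with any peak, 23.8% were variable. The share was 67.6% of 34 replication-dependent histone genes, 51.5% of 68 potassium channel genes, 39.6% of 53 interferon-induced genes and 38.7% of 31 HOX genes. It was 34.8% of 443 ZNF zinc finger genes, 33.3% of 81 cytosolic ribosomal protein genes, 32.9% of 76 respiratory chain genes, 19.3% of 249 solute carrier genes and 17.4% of 46 proteasome subunit genes. The interferon-induced list also held receptor and signalling genes (IFNGR1, IFNGR2, JAK1, JAK2 and STAT3), all with a constant promoter. None of these lists was tested.

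**Figure D4:**
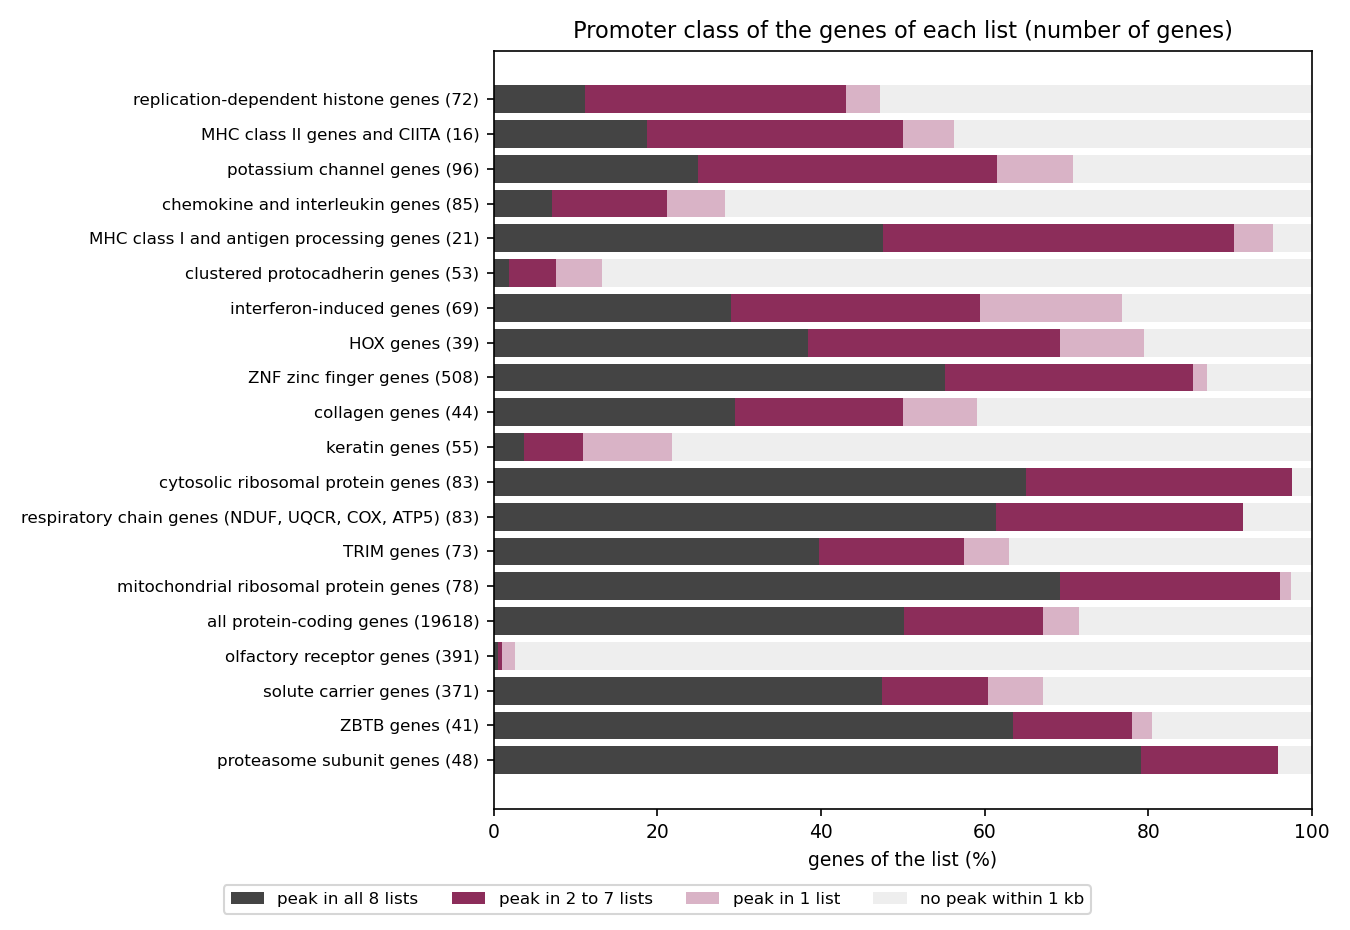
Percent of the genes of each list (x axis) by promoter class, with the number of genes in brackets, lists ordered by the variable share among genes with a peak, and the smallest lists (shelterin and telomerase, ZBTB48 target and cell type marker genes) left out. Of the lists plotted, replication-dependent histone genes are at the top (23 variable of 72 genes) and proteasome subunit genes at the bottom (8 of 48).

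Counts for gene families stand beside 56.9% of all members with more WT than KO libraries and 17.4% with fewer (47.3% and 19.9% of all regions in 2 to 7 lists), and beside the GC tertiles, where more WT libraries were seen at 35.4% of the lowest, 58.7% of the middle and 75.3% of the highest. Of 15 variable regions at HOX genes, which set body axis identity, 14 had more WT than KO libraries (93.3%, median GC 64.7%). The numbers with a peak were 13, 10, 6 and 5 in untreated WT_4, WT_5, KO_C5 and KO_D2. After IFNγ they were 11, 12, 11 and 7 in the same order. HOXC10 had percentiles of 41.1 in untreated WT_4, 75.7 in untreated WT_5 and 58.1 in untreated KO_D2, and 28.5, 83.7, 70.3 and 75.1 after IFNγ in WT_4, WT_5, KO_C5 and KO_D2. It was absent from untreated KO_C5 alone. Potassium channel genes had more WT libraries at 30 of 43 regions (69.8%, median GC 70.3%, a share below that of the highest GC tertile) and collagen genes at 9 of 11 (81.8%, median GC 66.7%). Cytosolic ribosomal protein genes had fewer WT than KO libraries at 14 of 29 regions (48.3%) and more at 6 (20.7%), with a median GC of 58.0%. In the lowest GC tertile these shares were 28.5% and 35.4%. All 29 had a peak in IFNγ-treated WT_5 and in IFNγ-treated KO_C5, but 10 had a peak in untreated WT_4. RPS6, a protein of the small ribosomal subunit, had no peak in WT_4 in either condition. It had 65.0 in untreated WT_5, 21.6 in untreated KO_D2, and 71.5, 53.4 and 31.2 after IFNγ in WT_5, KO_C5 and KO_D2. Respiratory chain genes had fewer WT libraries at 13 of 24 regions (54.2%) and more at 5 (20.8%), with a median GC of 56.8%, and 24 of 24 had a peak in untreated WT_5 against 7 in untreated WT_4. ZNF genes had more IFNγ than untreated libraries at 127 of 163 regions (77.9%) and fewer at 11 (6.75%), beside 57.7% and 15.2% of all members and 73.1% and 5.50% of the lowest GC tertile. Their median GC was 60.0%.

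The interferon-induced genes had 25 variable regions at 21 genes. More IFNγ than untreated libraries had a peak at 22 of the 25 and fewer at 1, an ISG15 region 666 bp from a start. These shares of 88% and 4% stand beside 60.1% and 11.2% of all regions in 2 to 7 lists and 73.1% and 5.50% of members in the lowest GC tertile, where the median GC of the 25 (57.3%) falls. The number with a peak went from 6 to 10 in WT_4, from 14 to 22 in WT_5, from 5 to 22 in KO_C5 and from 4 to 23 in KO_D2. In WT_4 all members of the lowest GC tertile likewise went from 289 to 371, while the members as a whole became fewer. ISG15, a ubiquitin-like modifier, had at its start a percentile of 48.3 in untreated WT_5 and no other untreated peak, and 35.7, 83.6, 49.0 and 76.1 after IFNγ in WT_4, WT_5, KO_C5 and KO_D2. PARP14, an ADP-ribosyltransferase gene, had 37.5, 42.7 and 16.3 in untreated WT_4, WT_5 and KO_D2, and 62.1, 78.4, 60.3 and 77.1 after IFNγ in WT_4, WT_5, KO_C5 and KO_D2. Its IFNγ values did not overlap its untreated values. OAS3, a sensor of double-stranded RNA, likewise had 35.8, 42.2 and 25.0 in untreated WT_4, WT_5 and KO_C5 and 61.7, 71.6, 58.0 and 76.7 after IFNγ. IFI6, a mitochondrial interferon-induced protein gene, had no peak in WT_4, 59.0 and 52.1 in WT_5 without and with IFNγ, 21.3 and 41.5 in KO_C5, and 52.0 in IFNγ-treated KO_D2 alone. IRF9, an interferon regulatory factor gene, had 62.6 and 17.2 in untreated WT_5 and KO_D2 and 77.5, 73.5 and 58.8 after IFNγ in WT_5, KO_C5 and KO_D2. The IFNγ list of WT_4 held 18913 peaks and its untreated list 21715.

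MHC class I and antigen processing genes had 10 variable regions, of which 9 had more IFNγ libraries and 1, at TAPBPL, fewer (60.1% and 11.2% of all regions in 2 to 7 lists). NLRC5, the activator of MHC class I genes, had 44, 65.8 and 61.0 in untreated WT_4, WT_5 and KO_C5. It had 84.1, 91.3, 87.1 and 87.9 after IFNγ in WT_4, WT_5, KO_C5 and KO_D2, each above every untreated value. B2M, the light chain of MHC class I, had 27.3, 77.7 and 41.1 in untreated WT_4, WT_5 and KO_D2 and 36.1, 78.5, 70.7 and 78.8 after IFNγ, so the groups overlapped. HLA-B and HLA-C, heavy chains of MHC class I, had no peak in WT_4 or in untreated KO_C5. They had 65.6 and 64.4 in untreated WT_5 and 77.8 and 75.5 in IFNγ-treated WT_5. Both genes are close copies of one another, so reads could be placed between them with uncertainty. The list of MHC class II genes and CIITA had 5 variable regions. More IFNγ than untreated libraries had a peak at 3 (60%), all at CIITA or CD74, and fewer at 1 (20%), near RFXANK. Over all regions in 2 to 7 lists these shares were 60.1% and 11.2%. CD74, the invariant chain, had a peak after IFNγ in WT_5 (67.6) and KO_D2 (36.0), and the start shared by HLA-DPA1 and HLA-DPB1 had a peak in both WT_5 libraries (21.2 and 34.1). HLA-DRA had no peak within 1000 bp.

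ISRE letters were searched in all members. They were found on either strand at 180 members, 3.57% against 1.89% of constant promoters and 3.46% of gene starts, and at 11 of the 24 members nearest to an interferon-induced gene (45.8%). More IFNγ than untreated libraries had a peak at 146 of the 180 (81.1%) and at 56.8% of members without the letters. Within the lowest GC tertile the shares were 90.2% of 102 and 72.0% of 1517, within the middle 71.7% of 53 and 67.1% of 1645, and within the highest 64.0% of 25 and 33.5% of 1707. The gap was thus smallest in the middle tertile. The number of ISRE members with a peak was higher after IFNγ in each clone, from 73 to 80 in WT_4, 135 to 170 in WT_5, 37 to 157 in KO_C5 and 56 to 138 in KO_D2. Members of the lowest GC tertile without the letters were also more numerous after IFNγ in each clone, from 269 to 340 in WT_4, 1279 to 1412 in WT_5, 310 to 1195 in KO_C5 and 515 to 1033 in KO_D2. GAS letters were at 5.19% of members and 7.12% of gene starts. More IFNγ libraries were seen at 73.2% of 149 members with them and 73.1% of 1470 without in the lowest tertile, 76.1% of 71 and 66.8% of 1627 in the middle, and 28.6% of 42 and 34.1% of 1690 in the highest. For AP-1 letters the shares were 68.8% of 256 and 74.0% of 1363 in the lowest, 76.8% of 168 and 66.1% of 1530 in the middle, and 29.8% of 47 and 34.1% of 1685 in the highest. In the middle tertile the gaps for GAS and AP-1 letters were thus larger than that for ISRE letters, and none of these gaps was tested.

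By chromosome, 44.2% of the 514 promoters on the X chromosome were variable, against 22.9% (chromosome 21) to 34.0% (chromosome 7) on the autosomes. The median pileup of constant promoters on the X chromosome was 0.570 to 0.652 of that of all constant promoters in the 8 libraries.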

How the data were processed

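FAIRE-seq was measured in 8 libraries of 4 U2OS clones. Per the methods and labels, reads were trimmed with trimmomatic, aligned to GRCh38 with Bowtie2 2.2.5, filtered with SAMtools 1.14 at a mapping quality of 30 and called with MACS2 2.2.7.1 in paired-end mode, a list per library. The control and the treatment of duplicates are not given in the sources used here. The deposited fold enrichment is a ratio of summit pileup to local background, with the pseudocount given above added to each. The deposited −log10 p and q come from the same caller, and the deposited score, a multiple of −log10 q, was not used. Read counts were not analysed here, so depth is known only through the pileup and local background solved from fold and −log10 p (whole pileups for 100% of peaks, with a misfit under 0.1% of −log10 p).

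Members, gene lists and tests were chosen with earlier results of these data known. TSS were those of protein-coding transcripts in GENCODE 44, and regions bear the name of the nearest gene. Named members are the 5 strongest of each genotype or treatment pattern, the 3 strongest of each clone pattern, the 10 strongest of all by mean percentile and members at genes of the interferon, MHC, ZBTB48 target, telomere and marker lists. Others were chosen after their values were seen. Genotype was tested on clone means over 6 assignments and treatment over 70 (smallest two-sided p 0.0286), with Benjamini-Hochberg adjustment over 4 measures. The libraries may share handling, so p-values measure the spread between these clones and libraries. The labels name the clone, which pairs each untreated library with an IFNγ library. Deviations of such pairs correlated at 0.353 in WT and 0.164 in KO. WT and KO clones share only a number. A motif match is a description. Python 3.11.15, numpy 2.4.6, pandas 2.3.3 and scipy 1.17.1 were used, and the code was tested on simulated lists with known patterns. Results at some genes are not reported here.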

Additional observations from a re-analysis of the deposited data

Results flagged for a closer look

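In the full lists, the change with IFNγ in the share of a list that members made up had opposite signs in the 2 genotypes. It was −1.31 points in WT_4 and −0.366 in WT_5, and 4.71 points in KO_C5 and 1.64 in KO_D2. The mean difference of WT minus KO clones was −4.01 points (two-sided exact permutation over clones p = 0.333, the smallest that 2 against 2 clones can give). The same peaks chose the members, so this p-value is descriptive. This separation did not hold with every list cut to its 16730 strongest peaks. Members then went from 2793 to 2676 in WT_4 and from 2590 to 2098 in KO_D2. They went from 2245 to 2371 in WT_5 and from 2126 to 2277 in KO_C5, so the signs differed within each genotype.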

How the results depend on the processing

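With lists cut to 16730 peaks, 4105 members remained and 2 results turned, as IFNγ minus untreated became −83 members per library (exact permutation p = 0.743) and −0.496 points of the list. There were then 11 WT-only, 3 KO-only, 4 IFNγ-only and 5 untreated-only members. In WT_4, 582 were lost with IFNγ, and the numbers gained and lost were 539 and 413 in WT_5, 1215 and 1064 in KO_C5 and 496 and 988 in KO_D2. Among named regions, WT minus KO libraries turned to 1 at SP110 and to −1 at HLA-F and TAPBP. With a single TSS per gene, WT_5 gained 682 and lost 118. Leaving out each replicate in turn gave 62 to 122 WT-only, 0 to 1 KO-only, 12 to 102 IFNγ-only and 0 to 7 untreated-only members, and 4387 to 4807 members in all. The change in median fold with IFNγ ranged from −0.205, without IFNγ-treated WT_5, to 0.937. An alternative chosen after seeing the data, clone WT_4 left out, gave 448 WT-only, 5 KO-only, 134 IFNγ-only and 1 untreated-only members. Leaving out libraries drops conditions of a pattern, which by itself lets its numbers rise. Beyond that, the cause of these changes was not tested. The replicate block, with the clone as the pair for IFNγ (p = 0.25, 0.625, 0.25 and 0.5 for members, share of list, percentile and fold, smallest possible 0.125) and the number as the pair for genotype (p = 1, 0.5, 1 and 0.5, smallest possible 0.5; exact permutation tests), changed no call. The numbers correlated at 0.221 untreated and −0.0806 after IFNγ. A −log10 q of at least 3, an overlap of 0.5, a window of 500 bp and no length limit turned no direction and moved no count by over 1.5 times among the 21 overall results. At named regions the last 3 were not run, and a −log10 q of at least 3 moved 12 of 194 values. A weak promoter may lack a peak through depth, which was 0.621 to 1.08 fragments of library background.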
